A study of Mus musculus with 6 samples.

Results

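The 9 genes described here, Rbp4, Lrat, Retsat, Rdh7, Rdh16, Rdh11, Dhrs3, Cyp26a1 and Rarb, act in the storage and conversion of retinoids (vitamin A and its derivatives). They were chosen by symbol, and all 9 were found once among the 34745 genes of each library. RNA-seq was performed on primary hepatocytes of 12-week-old male mice with liver fibrosis induced by carbon tetrachloride (CCl4). All mice carried Foxa2 alleles flanked by loxP sites (FOXA2f/f), Foxa2 being a liver-enriched forkhead transcription factor. The 3 FOXA2f/f+CCl4 libraries came from mice given the control virus AAV8-TBG-Control. The 3 FOXA2H-KO+CCl4 libraries came from mice given AAV8-TBG-Cre, whose TBG promoter restricts the Cre recombinase to hepatocytes, so that other liver cells kept their Foxa2. In both groups the virus preceded CCl4 by 2 weeks, CCl4 was injected at 0.25 ml/kg 2 times a week for 4 weeks, and the animals were killed on day 3 after the last injection. Libraries of mice without CCl4 were not analysed here, so the comparison is of the groups within fibrotic liver and does not give the effect of CCl4. The deletion, Cre itself and the worse fibrosis that the paper reports in FOXA2H-KO mice cannot be told apart in it. The labels number the replicates of each group 1, 2 and 4, and p-values measure the spread between these libraries.

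The liver is the main store of vitamin A. Hepatocytes take up dietary retinyl esters, hydrolyse them and release retinol into plasma bound to the carrier RBP4, while most of the store lies as retinyl esters, made by LRAT, in the lipid droplets of hepatic stellate cells. Stellate cells lose these droplets when they are activated in fibrosis. Retinol is oxidized to retinal by short-chain dehydrogenases such as RDH7 and RDH16, retinal is reduced back by enzymes such as RDH11 and DHRS3, or oxidized further to retinoic acid, the ligand of the retinoic acid receptors. Retinoic acid is degraded by CYP26A1, and Cyp26a1 and Rarb are classical target genes of retinoic acid itself.

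Deletion of Foxa2 was checked first. Foxa2 was at 19.0, 13.5 and 16.4 CPM (counts scaled to library size with TMM factors) in FOXA2f/f replicates 1, 2 and 4 and at 1.03, 0.762 and 1.62 CPM in FOXA2H-KO replicates 1, 2 and 4 (log2 fold change -3.85, SE 0.31, edgeR quasi-likelihood test with Benjamini-Hochberg adjustment, adjusted p = 0.0313). Total counts lay between 20983455 and 28327765 per library. The 8 hepatocyte markers were detected in every library, with a sum of 113639 to 170025 CPM. Markers of other liver cells were present too, and none of the markers examined was at 0 in all libraries. The 12 quiescent stellate cell markers, the 10 activated stellate cell markers, the 10 macrophage markers and the 10 endothelial markers were each detected in all 6 libraries. FOXA2f/f replicate 4 had the highest macrophage sum (2860 CPM, 621 to 2205 CPM in the other 5 libraries) and the highest endothelial sum (1096 CPM, 312 to 721 CPM in the others), and FOXA2f/f replicate 2 had the lowest of both. The mean summed CPM of 7 cholangiocyte markers was 2.00-fold higher in FOXA2H-KO than in FOXA2f/f libraries, with overlapping sums (252 to 708 against 174 to 367 CPM). All 5 of them that were tested had a log2 fold change above 0. Of the 5, 2 had an unadjusted edgeR p under 0.05 (lowest adjusted p 0.94), where 1.98% of all genes tested were higher with such a p. Of the neutrophil markers, 5 of the 5 tested were lower with an unadjusted edgeR p under 0.05, as were 3.18% of all genes tested (lowest adjusted p 0.76). Their sums overlapped between the groups, at 80.0, 3.84 and 37.0 CPM in FOXA2f/f and 5.96, 12.0 and 5.97 CPM in FOXA2H-KO replicates 1, 2 and 4, FOXA2f/f replicate 2 being the lowest library. Lastly, 8 of the 9 pericentral hepatocyte markers tested had a log2 fold change above 0. Over all genes tested 6892 were above 0 and 7525 below. Of the 9, 1 was higher with an unadjusted edgeR p under 0.05 (adjusted p 0.54), as were 1.98% of all genes tested. The part of these cells in the results below was not tested, and in bulk libraries fewer cells of a type and less RNA per cell cannot be told apart.

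The members differed widely in level. Per length (FPKM as deposited, mean ± SD over all 6 libraries), Rbp4 was highest at 1591 ± 240, above 99.9% of all genes in the files. Rdh7 followed at 334 ± 24.5. Both stood clear of each other and of the rest in every library. Then came Retsat at 20.6 ± 6.92, Dhrs3 at 12.2 ± 2.59, Rdh11 at 9.42 ± 2.58, Lrat at 9.03 ± 5.12, Cyp26a1 at 5.85 ± 4.30 and Rdh16 at 3.71 ± 1.31, with each gene's range over the libraries overlapping that of the next. Rarb was lowest at 1.60 ± 0.344, and its highest library (2.14) lay below the lowest of Rdh16 (2.40). The order depends in part on the gene length. With exon lengths of GENCODE M21 in place of those implied by the deposited FPKM, Dhrs3 (25.5) and Retsat (25.0) changed places and the other 7 kept their rank.

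None of the 9 members passed an adjusted p under 0.05 and a fold change of 2, the criterion that 0.00694% of the 14417 genes tested met (Foxa2 alone). This count of 0 was the same with DESeq2 and with limma on FPKM. Rdh16 was the only member with an unadjusted edgeR p under 0.05, 1 of 9 where 5.17% of all genes tested had one. It was also the only member whose groups did not overlap, which 10.5% of all genes tested showed, 4.54% with FOXA2H-KO higher. The median log2 fold change of the members was 0.08 against -0.01 for all genes tested, with 5 members above 0 and 4 below. The biological coefficient of variation of the libraries was 25.3%.

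**Figure D1:**
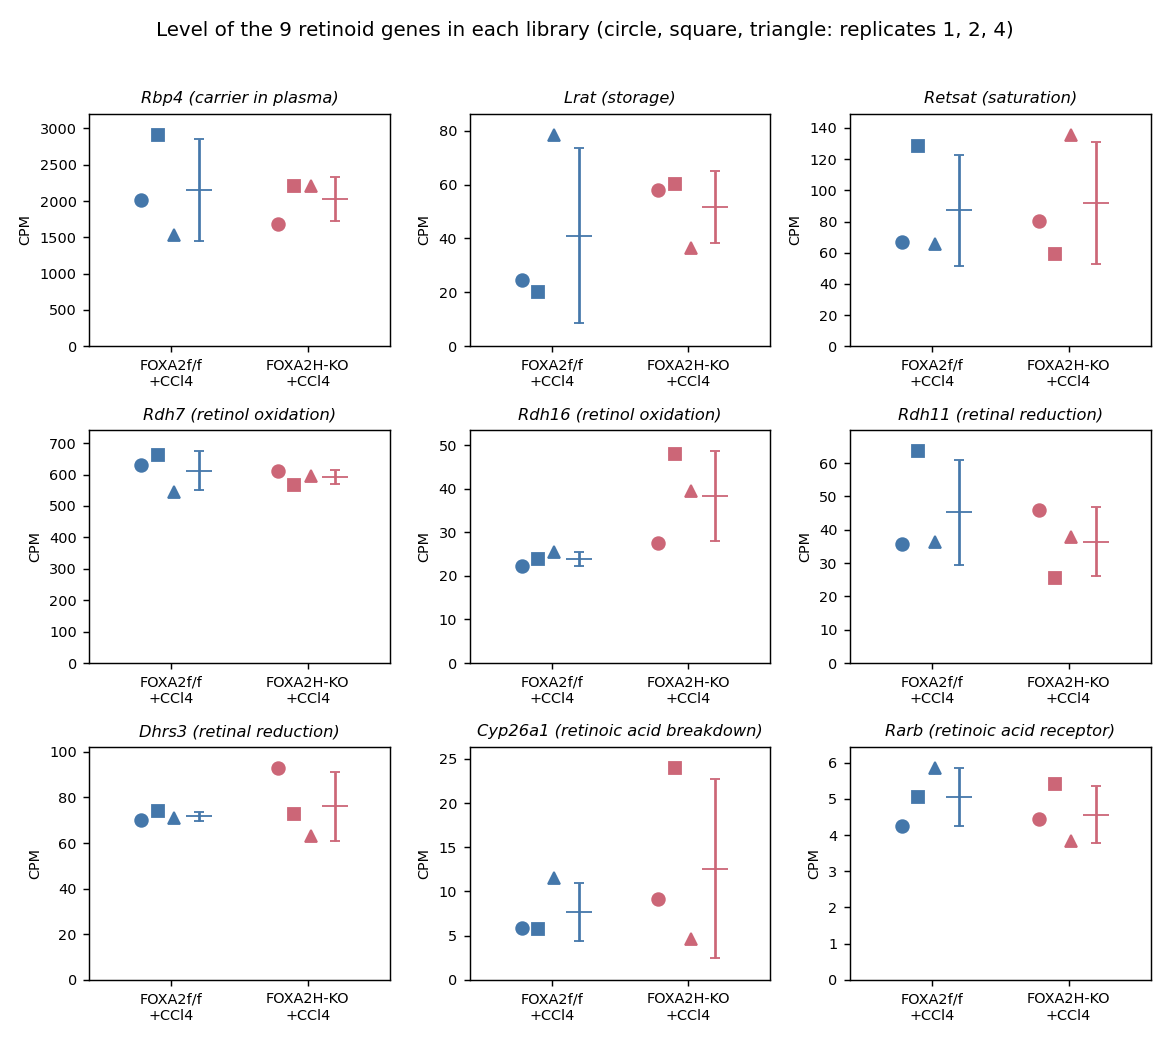
CPM of the 9 retinoid genes in each library, 1 panel a gene, each y axis from 0; points are libraries, the horizontal mark and bar beside them the mean and SD of the 3 libraries of a group. The groups overlap in every panel but that of Rdh16, where the FOXA2H-KO libraries (27.5 to 47.9 CPM) lie above the FOXA2f/f libraries (22.2 to 25.4 CPM).

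Rbp4 (ENSMUSG00000024990, chr19:38116629-38125281, minus strand, GRCm38) encodes the plasma carrier of retinol and is made mainly by hepatocytes. It was at 2017, 2913 and 1527 CPM in FOXA2f/f replicates 1, 2 and 4 and at 1685, 2201 and 2205 CPM in FOXA2H-KO replicates 1, 2 and 4. The 3 FOXA2H-KO values lay within the FOXA2f/f range. The log2 fold change was -0.08 (SE 0.28, edgeR adjusted p = 0.993), and it changed sign when libraries were scaled by total count alone. Ttr, whose product transthyretin binds RBP4 in plasma, was likewise within the spread of its replicates (log2 fold change -0.12, SE 0.26, edgeR adjusted p = 0.992).

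Lrat (ENSMUSG00000028003, chr3:82892579-82903973, minus strand) encodes the enzyme that esterifies retinol and is a marker of stellate cells. Its level was 24.6, 19.96 and 78.5 CPM in FOXA2f/f replicates 1, 2 and 4 and 58.2, 60.4 and 36.4 CPM in FOXA2H-KO replicates 1, 2 and 4. FOXA2f/f replicate 4 had the highest value of all 6 libraries, and the other 2 FOXA2f/f libraries had the lowest values. The log2 fold change was 0.33 (SE 0.50, edgeR adjusted p = 0.983). Without FOXA2f/f replicate 4 it was 1.21 with an unadjusted edgeR p of 0.0014, in a fit in which 16.6% of all genes tested had an unadjusted p under 0.05. Without FOXA2f/f replicate 2 it was 0.00.

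Lrat was set beside the marker lists of other liver cells. The summed macrophage markers were 1313, 621 and 2860 CPM in FOXA2f/f replicates 1, 2 and 4 and 2205, 1983 and 1372 CPM in FOXA2H-KO replicates 1, 2 and 4, so that FOXA2f/f replicates 2 and 1 were lowest and FOXA2f/f replicate 4 highest, as for Lrat. This was not particular to macrophages. The endothelial sums had the same lowest and highest libraries (553, 312 and 1096 CPM in FOXA2f/f and 610, 688 and 721 CPM in FOXA2H-KO replicates 1, 2 and 4). The gene whose centred log2 CPM profile lay nearest to that of Lrat among 8294 genes was Adgre1, the macrophage marker F4/80 (root mean square difference 0.17, where Lrat itself varied by 0.71 about its mean). Itgal and Trpm2 were almost as near, both at 0.18. Adgre1, Itgal and Trpm2 were chosen after their values were seen. The other 11 quiescent stellate cell markers summed to 504, 358 and 893 CPM in FOXA2f/f replicates 1, 2 and 4 and to 458, 568 and 482 CPM in FOXA2H-KO replicates 1, 2 and 4, and FOXA2f/f replicate 4 was again highest, but FOXA2H-KO replicates 1 and 4 lay below FOXA2f/f replicate 1, unlike for Lrat. The cholangiocyte sums (367, 174 and 231 CPM in FOXA2f/f and 708, 252 and 588 CPM in FOXA2H-KO replicates 1, 2 and 4) did not follow Lrat either. The 10 activated stellate cell markers all had a log2 fold change above 0, none with an unadjusted edgeR p under 0.05, and their sum ran from 761 to 1881 CPM in FOXA2f/f and from 1006 to 2089 CPM in FOXA2H-KO libraries. That sum was also lowest in FOXA2f/f replicates 1 and 2, but highest in FOXA2H-KO replicate 1. Divided by the sum of the other quiescent stellate markers, Lrat was 0.0487, 0.0558 and 0.0880 in FOXA2f/f and 0.127, 0.106 and 0.0755 in FOXA2H-KO replicates 1, 2 and 4 (log2 difference 0.70). This ratio was set up after seeing the data, and its groups overlapped (exact two-sided permutation p = 0.2, where 3 against 3 libraries allow no p below 0.1).

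**Figure D2:**
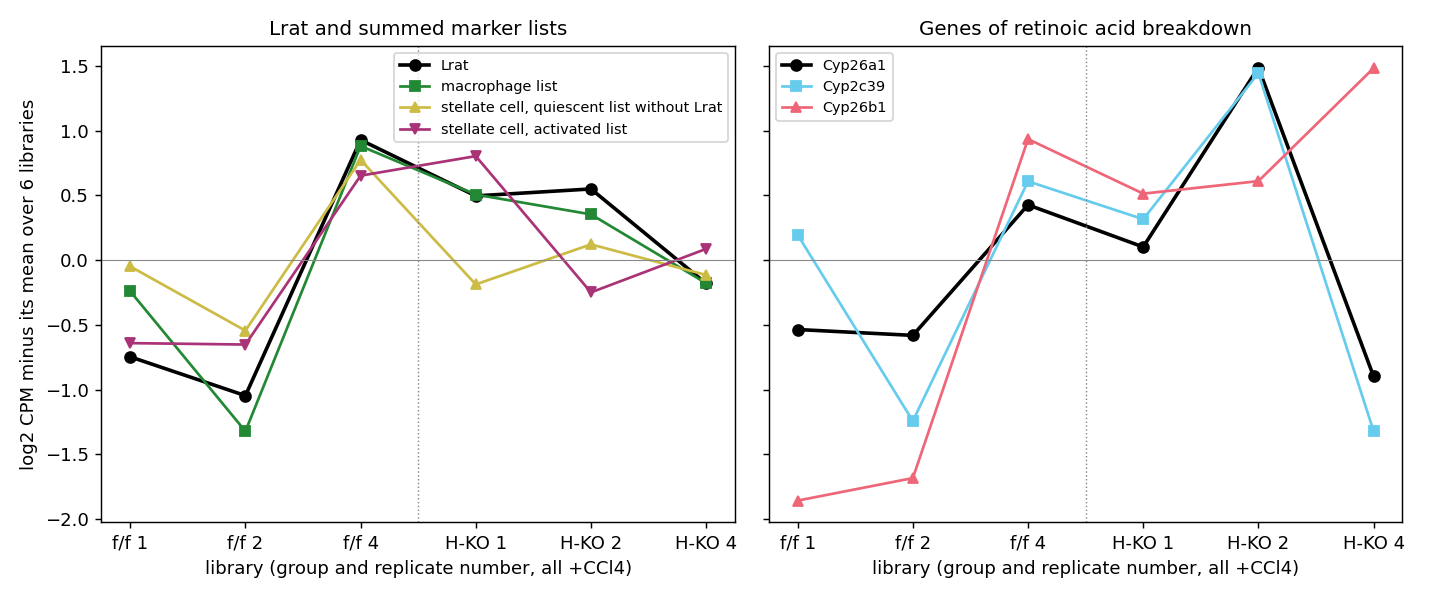
Log2 CPM minus its mean over the 6 libraries (y axis) in each library (x axis); lines join the values of 1 gene or list and imply no order of replicates. On the left, Lrat and the macrophage and stellate cell lists are high in FOXA2f/f replicate 4 and low in FOXA2f/f replicate 2; on the right, Cyp26a1 and Cyp2c39 are both highest in FOXA2H-KO replicate 2, while Cyp26b1 is highest in FOXA2H-KO replicate 4.

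Retsat (ENSMUSG00000056666, chr6:72598475-72608425, plus strand) encodes retinol saturase, which converts retinol to dihydroretinol. It was at 67.1, 128 and 65.9 CPM in FOXA2f/f and at 80.5, 59.4 and 136 CPM in FOXA2H-KO replicates 1, 2 and 4. Each group had 1 library about as high as that of the other group and 2 low libraries. The log2 fold change was 0.08 (SE 0.36, edgeR adjusted p = 0.995) and ran from -0.30 to 0.47 with single libraries left out. In the annotation 18.4% of its exon bases overlapped Gm45053 on the opposite strand. Without strand, the reads of such a pair cannot be told apart.

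Rdh7 and Rdh16 belong to one family of retinol and hydroxysteroid dehydrogenases and lie in a cluster on chromosome 10. Rdh7 (ENSMUSG00000040134, chr10:127884028-127888817, minus strand) was the most even member, at 629, 664 and 545 CPM in FOXA2f/f and 613, 567 and 596 CPM in FOXA2H-KO replicates 1, 2 and 4. Its highest library was only 1.22-fold above its lowest. The log2 fold change was -0.05 (SE 0.16, edgeR adjusted p = 0.993).

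Rdh16 (ENSMUSG00000069456, chr10:127801152-127846565, plus strand) was at 22.2, 23.9 and 25.4 CPM in FOXA2f/f and at 27.5, 47.9 and 39.4 CPM in FOXA2H-KO replicates 1, 2 and 4. All FOXA2H-KO libraries lay above all FOXA2f/f libraries, FOXA2H-KO replicate 1 by the least. The mean was 23.8 ± 1.59 in FOXA2f/f and 38.3 ± 10.3 CPM in FOXA2H-KO libraries (SD, n = 3 each), a ratio of 1.61, but the difference did not pass the adjusted threshold (log2 fold change 0.68, SE 0.20, unadjusted p = 0.011, edgeR quasi-likelihood test, Benjamini-Hochberg adjusted p = 0.771). Rdh16 ranked 204 of the 14417 genes by p. Its adjusted p was between 0.227 and 1.00 under the alternatives tried, and its unadjusted p stayed under 0.05 in all 14 of them, with log2 fold changes of 0.49 to 0.87. The exact two-sided permutation test on CPM gave p = 0.1, the smallest value possible with 3 against 3.

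Some of the sequence of Rdh16 is shared with other genes. How the counting treated reads from shared sequence was not examined. Of the 50-base stretches of Rdh16, 14.5% also occur in other genes, namely Rdh9, Rdh18-ps, Rdh16f1, Rdh19 and Rdh1. In the annotation 6.13% of its exon bases overlap the pseudogene Rdh18-ps on the same strand. The same share was 12.9% for Rdh7. Of these genes, Rdh9 was at 13.9, 4.06 and 11.5 CPM in FOXA2f/f and 12.0, 12.3 and 9.57 CPM in FOXA2H-KO replicates 1, 2 and 4, with overlapping groups (log2 fold change 0.20, SE 0.40, edgeR adjusted p = 0.991). Rdh16f2, which lies between Rdh19 and Rdh7 in the cluster, had a log2 fold change of 0.21 (SE 0.21, edgeR adjusted p = 0.983). Rdh18-ps, Rdh1 and Rdh19 had at most 19 counts in any library, and Rdh16f1, whose exons all overlap Rdh1 or Rdh9, was listed at 0 throughout. The genes with the profile nearest to that of Rdh16 over the 6 libraries, among 8294 genes of at least 10 CPM, were Pole4, Cipc and Marveld1 (root mean square differences 0.15, 0.17 and 0.18, with Rdh16 varying by 0.40 about its mean). The nearest other member was Rarb at 0.44, farther than a flat profile would be.

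Rdh11 and Dhrs3 encode dehydrogenases that return retinal to retinol. Rdh11 (ENSMUSG00000066441, chr12:79174337-79192293, minus strand) was at 35.9, 63.5 and 36.4 CPM in FOXA2f/f and at 46.0, 25.6 and 37.8 CPM in FOXA2H-KO replicates 1, 2 and 4. The highest value belonged to FOXA2f/f replicate 2, and without this library the log2 fold change went from -0.31 (SE 0.29, edgeR adjusted p = 0.983) to 0.01. Dhrs3 (ENSMUSG00000066026, chr4:144892827-144928209, plus strand), itself induced by retinoic acid, was at 70.1, 74.0 and 70.9 CPM in FOXA2f/f and at 92.8, 72.7 and 63.1 CPM in FOXA2H-KO replicates 1, 2 and 4. The FOXA2f/f libraries lay within 4 CPM of each other, and the FOXA2H-KO libraries fell on both sides of them. Its log2 fold change was 0.09 (SE 0.16, edgeR adjusted p = 0.991).

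Cyp26a1 and Rarb are the members by which retinoic acid action is usually read. Both were looked at together with their promoters, since both are known to carry a retinoic acid response element. A direct repeat with a spacer of 5 bases was searched on both strands, in which each of the 2 units read AGGTCA or, in its place, AGTTCA or else GGTTCA or otherwise GGGTCA. The search covered RefSeq promoter windows of GRCm38.p6, from 250 bases before to 50 after each start. It was found in 2 of the 9 members, Cyp26a1 and Rarb, and in 0.115% of the 27025 genes with a window. As both were known carriers, finding the repeat in them is no independent result. The stretches of 30 bases around these repeats carry the letters that, within these windows, set the 2 genes apart from the other members. They are shown with the units of the repeat in capitals and the gene's strand read 5′ to 3′.
Cyp26a1, chr19:37697770-37697799, plus strand: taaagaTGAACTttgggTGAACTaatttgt
Rarb, chr14:16575506-16575535, minus strand: gggaagGGTTCAccgaaAGTTCActcgcat

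The repeat of Cyp26a1 reads on the opposite strand to the gene and begins 32 bases before the start, and that of Rarb reads on the gene's strand and begins 53 bases before. Single units are common, present in 46.9% of genes and in 7 of the 9 members. Cyp26a1 (ENSMUSG00000024987, chr19:37697798-37701536, plus strand) was the most variable member. It was at 5.88, 5.70 and 11.5 CPM in FOXA2f/f and at 9.16, 23.9 and 4.58 CPM in FOXA2H-KO replicates 1, 2 and 4, a 5.23-fold span. The FOXA2H-KO group held both the highest and the lowest library. The log2 fold change, 0.70 (SE 0.57, edgeR adjusted p = 0.983), became -0.16 without FOXA2H-KO replicate 2.

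Rarb (ENSMUSG00000017491, chr14:16430839-16819156, minus strand), the other carrier of the repeat, did not share this spread. Its level was 4.25, 5.04 and 5.85 CPM in FOXA2f/f and 4.45, 5.41 and 3.84 CPM in FOXA2H-KO replicates 1, 2 and 4. The groups overlapped. FOXA2f/f replicate 4 and FOXA2H-KO replicate 2 were the 2 highest libraries for both Rarb and Cyp26a1, in opposite order, and FOXA2H-KO replicate 4 was the lowest for both. The log2 fold change was -0.15 (SE 0.23, edgeR adjusted p = 0.985). In GENCODE M21 38.4% of the exon bases of Rarb overlap Top2b or Gm48162 on the opposite strand, so that its counts may be affected. The deposited FPKM imply a length of 3034 bases for Rarb against 5265 in that annotation. How far the overlap touches the deposited counts was therefore not tested. Of the 31 genes with the repeat, 15 were found by symbol among the genes counted. The filter on low counts left 7 of these, Cyp26a1 and Rarb included. Among the 7, 0 had an unadjusted edgeR p under 0.05, against 5.17% of all genes tested. The 7 had 2 log2 fold changes above 0 and 5 below, against 6892 above and 7525 below over all genes tested.

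Letters of the forkhead family, to which FOXA2 belongs, were searched in the same windows as TGTTTAC and TATTTAC on both strands. One or the other was present in 7.35% of genes and in 2 of the 9 members, in both as TGTTTAC read on the strand opposite to the gene. The stretches are shown for the members in which the deletion of Foxa2 could be read beside such a match, with the match in capitals on the gene's strand.
Rbp4, chr19:38125542-38125571, minus strand: aaatgcatgGTAAACActtggcaattatgt
Dhrs3, chr4:144893120-144893149, plus strand: tctgtcggtctGTAAACAttacctgtgaat

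Neither Rbp4 nor Dhrs3 differed between the groups beyond the spread of its replicates, with the values given above, and Rdh16, the member with the smallest p, had no such match in its window. These are matches of letters only, and they did not lie in every promoter window of Rbp4 or of Dhrs3. Sequence outside the windows was not searched, and binding of FOXA2 was not measured here. Whether FOXA2 acts directly on any member was therefore not tested, for members with a match or without.

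**Figure D3:**
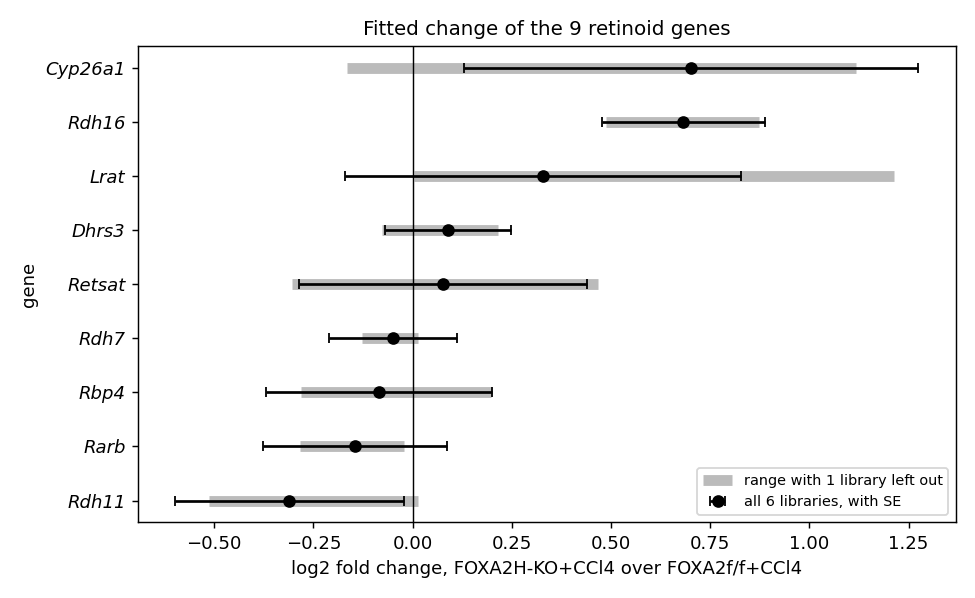
Log2 fold change of FOXA2H-KO over FOXA2f/f for each member (x axis; points with SE bars from all 6 libraries) and the range of the same value with 1 library left out (grey). Only Rdh16, Lrat and Rarb keep 1 sign over the whole grey range, that of Lrat ending at 0.00.

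The comparison was extended to 68 other genes of the pathway, listed by role. Of these, 55 passed the filter on low counts, 23 with a log2 fold change above 0 and 32 below, with a median of -0.06. None passed the adjusted threshold in the edgeR test, and 9 had an unadjusted p under 0.05, 3 higher and 6 lower, against 1.98% higher and 3.18% lower over all genes tested. Carriers and uptake (7 tested), retinal reduction (4), carotenoid cleavage (3) and known targets of retinoic acid (3 tested, Stra8 and Cdx1 at 0 in all libraries) held none of them.

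Of the 7 genes tested that were listed under retinal oxidation, 2 were lower with an unadjusted edgeR p under 0.05, 3 more had a log2 fold change below 0 and 2 above 0. Aldh1a7 was listed there only as a close relative of the retinal dehydrogenase Aldh1a1, and whether its product oxidizes retinal was not measured. It was at 196, 232 and 186 CPM in FOXA2f/f and at 72.3, 110 and 93.4 CPM in FOXA2H-KO replicates 1, 2 and 4. All FOXA2H-KO libraries were below all FOXA2f/f libraries (log2 fold change -1.16, SE 0.19, unadjusted p = 0.000329, edgeR adjusted p = 0.539). Aox3, an aldehyde oxidase, was at 247, 740 and 303 CPM in FOXA2f/f and at 150, 93.9 and 76.8 CPM in FOXA2H-KO replicates 1, 2 and 4, again without overlap (log2 fold change -2.01, SE 0.45, edgeR adjusted p = 0.579). Without FOXA2f/f replicate 2, its highest library, the value was -1.36. DESeq2 called both (adjusted p = 0.000159 for Aldh1a7 and 0.00156 for Aox3), and the adjusted p was between these values and 1.00 over the alternatives tried. With DESeq2 75 of 22561 genes were called, against 1 of 14417 in the main analysis. Aldh1a1 itself was at 735, 892 and 611 CPM in FOXA2f/f and at 578, 572 and 602 CPM in FOXA2H-KO libraries. Its groups did not overlap, with a smaller fitted difference (log2 fold change -0.35, SE 0.19, edgeR adjusted p = 0.952).

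Among the enzymes that oxidize retinol, Adh4 was lower (94.4 ± 24.8 against 57.5 ± 5.20 CPM, SD, n = 3 each, log2 fold change -0.71, edgeR unadjusted p = 0.00675, adjusted p = 0.689) and so was Adh5 (log2 fold change -0.63, edgeR unadjusted p = 0.0313, adjusted p = 0.915), whose groups overlapped. Dhrs9 was higher, at 6.96, 8.22 and 8.17 CPM in FOXA2f/f and at 17.0, 11.6 and 12.8 CPM in FOXA2H-KO replicates 1, 2 and 4 (log2 fold change 0.82, SE 0.20, edgeR unadjusted p = 0.00325, adjusted p = 0.609). Adh1, the main alcohol dehydrogenase of the liver, differed by less than its spread (log2 fold change -0.13, SE 0.24, edgeR adjusted p = 0.991). Of the genes of ester formation and hydrolysis, Ces1g, a carboxylesterase, was lower (log2 fold change -1.13, edgeR unadjusted p = 0.0138, adjusted p = 0.791). Pnpla3, a retinyl ester hydrolase of stellate cells and hepatocytes, had a log2 fold change of -2.88 (edgeR unadjusted p = 0.0136, adjusted p = 0.791) that rested largely on FOXA2f/f replicate 2, with 23.8 CPM there and 3.05 and 3.91 CPM in replicates 1 and 4. Without that library it was -1.34.

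Of the genes of retinoic acid breakdown, all 3 tested besides Cyp26a1 had a log2 fold change above 0. Cyp2s1 was higher at 1.72 (SE 0.45, edgeR unadjusted p = 0.00566, adjusted p = 0.65), but from only 4 to 34 counts a library. Cyp2c39, a cytochrome P450 able to oxidize retinoic acid, was at 18.1, 6.69 and 24.2 CPM in FOXA2f/f and at 19.7, 43.1 and 6.34 CPM in FOXA2H-KO replicates 1, 2 and 4. It was the second nearest of 8294 genes to Cyp26a1 in its profile (root mean square difference 0.44, Cyp26a1 varying by 0.76), and its groups overlapped (log2 fold change 0.49, SE 0.67, edgeR adjusted p = 0.983). The value turned to -0.33 without FOXA2H-KO replicate 2 and was 0.94 without FOXA2H-KO replicate 4. Cyp26b1, the paralog of Cyp26a1, was at 1.85, 2.08 and 12.8 CPM in FOXA2f/f and at 9.56, 10.2 and 18.7 CPM in FOXA2H-KO replicates 1, 2 and 4. Like Lrat, it was low in FOXA2f/f replicates 1 and 2 and high in replicate 4 (log2 fold change 1.17, SE 0.72, edgeR adjusted p = 0.967). It ran from 0.77 without FOXA2f/f replicate 1 to 2.71 without FOXA2f/f replicate 4. Cyp2c39 and Cyp26b1 are described after their values were seen. Of the receptors and cofactors, Nrip1, a corepressor of nuclear receptors, was higher (14.98 ± 1.73 against 22.2 ± 1.57 CPM, SD, n = 3 each, log2 fold change 0.57, edgeR unadjusted p = 0.00501, adjusted p = 0.65). Rara and Rxra differed by 0.00 and -0.01 on the log2 scale (SE 0.18 and 0.16).

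**Figure D4:**
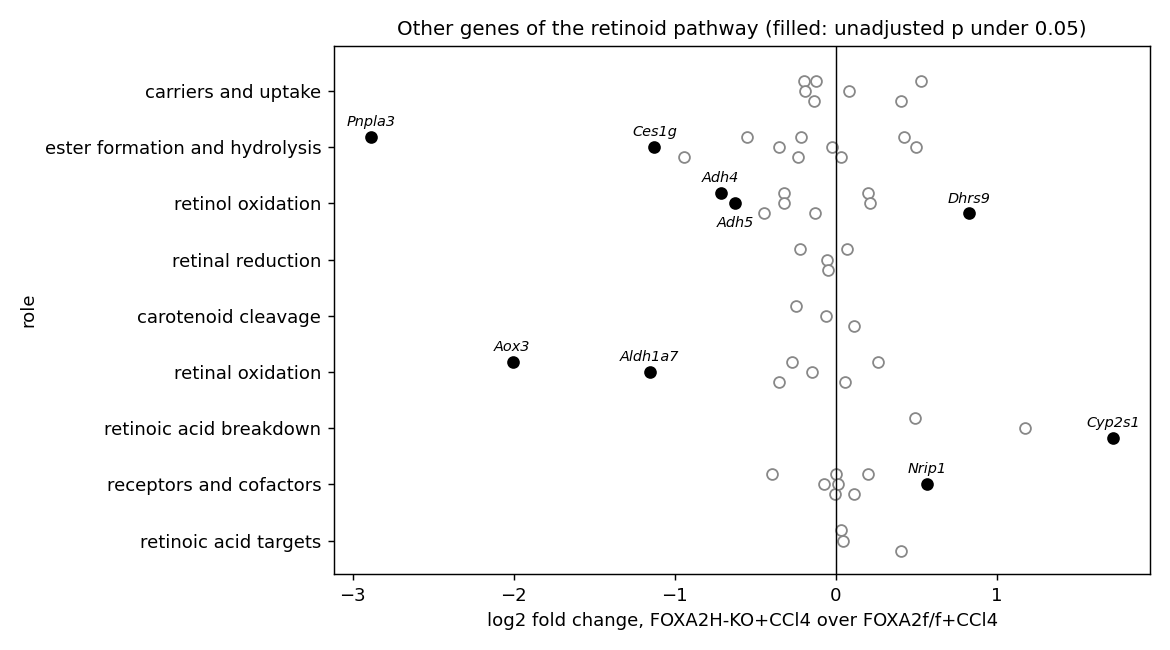
Log2 fold change of FOXA2H-KO over FOXA2f/f (x axis) of the 55 other retinoid genes tested, by role (y axis; offsets within a row only separate the points). The 9 filled and named points have an unadjusted edgeR p under 0.05, 6 of them left of 0 and 3 right of it.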

How the data were processed

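RNA was sequenced as paired-end libraries from primary hepatocytes, 3 FOXA2f/f+CCl4 and 3 FOXA2H-KO+CCl4. The authors deposited for each library a whole-number count and an FPKM value per gene. Per the labels' processing notes, CASAVA 1.8, TopHat2 2.1.0, HTSeq and edgeR were used with mm10, whose annotation release is not given in the sources used here. The deposited FPKM follow from count, total count and 1 length per gene. A table of the whole series repeats these values and was not used. The tests used edgeR 4.0.16 under R 4.3.3 (TMM factors, filterByExpr, quasi-likelihood test without a replicate block, Benjamini-Hochberg adjustment over 14417 genes). Calls needed an adjusted p under 0.05 and a fold change of 2 or more, as in the study. At these thresholds the study reported many more genes for this comparison than were called here. The cause of that difference was not tested. CPM use TMM-scaled library sizes. Single values were compared by exact permutation tests. Alternatives were DESeq2 1.42.0, limma 3.58.1 on log2(FPKM + 1) and log2(FPKM + 0.1) over genes with a mean FPKM of at least 1, upper quartile scaling, library size alone, no filter or at least 10 counts in every library, the replicate block, and each library left out. Levels per GENCODE M21 exon length and the ratio of Lrat to stellate cell markers were added after seeing the data. The tests were checked on simulated counts. Positions, overlaps and 50-base stretches come from GENCODE M21 (GRCm38), and promoter windows from RefSeq (GRCm38.p6, 14 windows for the 9 members). Profiles were compared as log2(CPM + 0.5) centred on the mean of the 6 libraries, over genes of at least 10 CPM, and likeness says nothing of shared control. Named were Foxa2, the members, other retinoid genes with an unadjusted p under 0.05, the Rdh cluster, Ttr, Adh1, Aldh1a1, Rara and Rxra, the 3 genes nearest to the member of smallest p and the member nearest to it. Not every gene so chosen is reported here. Members and lists were chosen with earlier results of these data known. The depth of 20983455 to 28327765 counts makes 3 counts worth 0.106 to 0.143 CPM by total count, and such floors cover counting error only.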

Additional observations from a re-analysis of the deposited data

How the results depend on the processing

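No member was called under any of the 14 alternatives. The number of all genes called was 1 in the main analysis, 75 with DESeq2, 2 without the low-count filter, 0 with library size alone, 0 with limma on log2(FPKM + 1), 0 on log2(FPKM + 0.1) and 0 to 6 with single libraries left out. The cause was not tested. The replicate numbers did not pair the libraries (correlations of deviations -0.07, 0.03 and -0.23 for numbers 1, 2 and 4, and 0 of 6 libraries most like the library of their own number). With the replicate number as a block, 0 genes were called, and the members' median was 0.07. That median was 0.08 in the main analysis, 0.22 with library size alone, 0.18 and 0.19 on FPKM with pseudocounts of 1 and 0.1, and between -0.027 and 0.11 with single libraries left out. Library size alone moved the median of all genes to 0.10 and FPKM with a pseudocount of 0.1 to 0.11. Rbp4 then changed sign to 0.060, and to 0.078 on both FPKM scales, and Rdh7 to 0.082, and to 0.078 on both FPKM scales. Relative to the median of all genes both stayed below 0 (-0.04 and -0.02 with library size alone). With single libraries left out, Rbp4 ran from -0.28 to 0.20, Rdh7 from -0.13 to 0.013, Rdh11 from -0.51 to 0.013, Retsat from -0.30 to 0.47, Dhrs3 from -0.078 to 0.22 and Cyp26a1 from -0.16 to 1.12. The sign changes were those of Rbp4 without FOXA2f/f replicate 2 or FOXA2H-KO replicate 1, of Rdh7 and Rdh11 without FOXA2f/f replicate 2, of Retsat without FOXA2f/f replicate 1 (-0.06), FOXA2f/f replicate 4 (-0.09) or FOXA2H-KO replicate 4, of Dhrs3 without FOXA2H-KO replicate 1 and of Cyp26a1 without FOXA2H-KO replicate 2. In the same fits 1 to 2 members and 8 to 17 other retinoid genes had an unadjusted p under 0.05, the highest numbers without FOXA2f/f replicate 4. Over all genes tested this share ran from 2.78% to 16.6%, and the 16.6% was without FOXA2f/f replicate 4. With 3 libraries a group and a coefficient of variation of 25.3%, small changes of single members were not detectable.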
